A study of Mus musculus with 12 samples.

Results

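The 10 genes described here are the 4 Janus kinases (Jak1, Jak2, Jak3 and Tyk2) and 6 receptor chains of the IL-6 and IL-10 cytokine families (Il6ra, Il6st, Lifr, Osmr, Il10ra and Il10rb). They were taken by gene symbol from the 24310 features listed in each library, and all 10 were found. RNA was sequenced from 12 libraries of CMM cells, mouse leukaemia cells carrying GFP that model inv(16) acute myeloid leukaemia and were grown in C57BL/6 mice. The mice received 3 intravenous injections on alternate days, beginning when about 1% of blood cells were GFP positive, and spleens were taken 1 day after the last. Cells carrying c-Kit were then enriched with a positive selection kit, and the series design text adds that they were GFP positive. There were 4 libraries in each of 3 labelled groups. The label PBS stands for the buffer alone. The label CpG-scrODN stands for a CpG oligonucleotide, a ligand of TLR9, joined to a scrambled oligonucleotide. The label CpG-STAT3dODN stands for the CpG oligonucleotide joined to a decoy for the transcription factor STAT3. What each labelled group received is not settled, because the file headers name other groups. All 3 groups therefore carried the same leukaemia in hosts of the same strain, and the age of the animals is not given in the sources used here. The study set out to ask how leukaemic cells respond when STAT3 is blocked and TLR9 is triggered together.

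Labels and file headers named different groups for each of the 12 libraries. The header word was DEC for the 4 PBS-labelled libraries, PBS for the 4 labelled CpG-scrODN and SCR for the 4 labelled CpG-STAT3dODN. Libraries are named by their labels throughout, and no difference is assigned to a treatment. A decoy acts on STAT3 protein, so the level of Stat3 RNA does not check the labels. Nothing says that each library came from a separate mouse, so the p-values rest on the spread among these libraries, and that spread may be technical.

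Values are RPKM, that is, reads corrected for transcript length and for sequencing depth, so levels of different genes may be set side by side. The steps between low values put the depth at 31610000 to 36360000 reads per library, at which 1 RPKM is about 31.6 to 36.4 reads per kilobase. The 11 genes of a fixed list for CMM and myeloid progenitor cells, Kit among them, were detected in every library. Their levels were not even across the groups: they summed to 397 to 535 RPKM in the PBS-labelled, 205 to 260 in the CpG-scrODN-labelled and 282 to 437 in the CpG-STAT3dODN-labelled libraries. Of the 10 tested, 4 were called lower in the CpG-scrODN-labelled than in the PBS-labelled libraries, the granule protein genes Mpo, Elane, Prtn3 and Ctsg, with differences of -2.08, -1.93, -2.05 and -2.09 on the log2(RPKM + 1) scale. Kit did not pass, at group means of 21.0, 32.2 and 35.5 RPKM. In the PBS-labelled libraries Kit was uneven, at 10.5, 12.8, 37.8 and 22.9 RPKM (replicates 1 to 4). Replicate 4 of the PBS-labelled and of the CpG-STAT3dODN-labelled group stood apart: Fos, an immediate early gene, was at 12.9 and 5.91 RPKM there and at 486 to 1156 in the other 10 libraries. Markers of B cells also differed between the groups. The summed RPKM of 16 B-cell genes, none of which was at 0 in any library, was 218 to 816 in the PBS-labelled libraries, 12.1 to 31.2 in the CpG-scrODN-labelled and 27.9 to 127 in the CpG-STAT3dODN-labelled. Of the 15 B-cell genes tested, 15 were called lower in the CpG-scrODN-labelled and 12 in the CpG-STAT3dODN-labelled than in the PBS-labelled libraries. Over all genes tested, 4.15% and 1.86% were called in these 2 comparisons. Cd79a carries the signal of the B-cell antigen receptor. It ranged from 45.0 to 187 RPKM in the PBS-labelled, 2.35 to 7.80 in the CpG-scrODN-labelled and 7.27 to 30.4 in the CpG-STAT3dODN-labelled group. In such bulk samples, fewer cells of a type and less RNA per cell cannot be told apart.

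Cytokines of the IL-6 family signal through the shared chain gp130, encoded by Il6st. The ligand-binding chain Il6ra recruits it for IL-6, Lifr pairs with it for LIF, and Osmr pairs with it for oncostatin M. IL-10 binds Il10ra and signals once Il10rb, a chain shared with IL-22 and the interferon lambdas, joins the complex. None of these chains has a kinase domain of its own. Janus kinases are bound to the cytoplasmic tails of gp130 and the other signalling chains, chiefly Jak1, with Jak2 and Tyk2. On activation they phosphorylate STAT3 and other STAT factors. Jak3 instead serves receptors that contain the common gamma chain and is best known from lymphoid and other blood cells.

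The genes lie on separate chromosomes apart from a pair on chromosome 15 and another on chromosome 9, in mm10 (GRCm38.p6) coordinates from RefSeq. Il6ra is at chr3:89869324-89913196, Il6st at chr13:112464070-112506860, Lifr at chr15:7090610-7197489 and Osmr at chr15:6813568-6874968. Il10ra is at chr9:45253837-45269149 and Il10rb at chr16:91406157-91425834. Jak1 is at chr4:101151974-101265282, Jak2 at chr19:29251803-29313095, Jak3 at chr8:71676383-71690577 and Tyk2 at chr9:21104068-21131393. Of the other protein-coding genes in RefSeq, Raver2 overlaps the span of Jak1 and Insl3 that of Jak3. Both were low, at 0.119 to 0.629 RPKM for Raver2 and 0.562 to 2.34 for Insl3, and the strand setting of the counting is not given in the sources used here.

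RefSeq promoter sequences (GRCm38.p6) were at hand for 8 of the 10 genes. Those of Il6ra and its signalling partner Il6st are shown because Il6ra was the only one of the 10 genes called in any comparison. Those of Jak1 and Jak3 are shown because, in each group, the library numbered 4 was the highest for Jak1 and the lowest for Jak3. Each is the 250 bases before an annotated start, written 5′ to 3′ on the strand of the gene: chr3:89913197-89913446 on the minus strand, chr13:112463820-112464069 on the plus strand, chr4:101265224-101265473 on the minus strand and chr8:71676133-71676382 on the plus strand. Capitals mark the 1 motif match.
Il6ra: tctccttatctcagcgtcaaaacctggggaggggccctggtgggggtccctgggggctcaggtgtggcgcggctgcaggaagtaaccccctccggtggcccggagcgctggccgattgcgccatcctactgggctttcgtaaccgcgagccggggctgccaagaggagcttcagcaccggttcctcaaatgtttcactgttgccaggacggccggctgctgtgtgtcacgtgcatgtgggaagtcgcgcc
Il6st: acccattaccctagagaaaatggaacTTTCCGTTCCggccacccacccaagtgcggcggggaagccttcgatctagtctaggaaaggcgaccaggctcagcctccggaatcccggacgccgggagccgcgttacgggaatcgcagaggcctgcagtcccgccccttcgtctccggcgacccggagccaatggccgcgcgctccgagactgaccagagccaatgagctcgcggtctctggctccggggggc
Jak1: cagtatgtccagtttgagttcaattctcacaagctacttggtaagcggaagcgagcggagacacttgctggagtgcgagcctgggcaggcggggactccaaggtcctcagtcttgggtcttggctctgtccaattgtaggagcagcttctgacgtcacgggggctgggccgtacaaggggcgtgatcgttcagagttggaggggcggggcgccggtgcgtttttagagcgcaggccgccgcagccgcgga
Jak3: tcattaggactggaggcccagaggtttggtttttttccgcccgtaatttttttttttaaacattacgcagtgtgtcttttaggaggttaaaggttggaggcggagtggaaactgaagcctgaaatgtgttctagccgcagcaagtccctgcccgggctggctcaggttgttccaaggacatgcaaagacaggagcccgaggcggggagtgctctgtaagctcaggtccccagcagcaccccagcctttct
The following 3 patterns were looked for on both strands of the window from 250 bases before to 50 after each start. TTCNNNGAA, the palindrome that STAT dimers bind, was in 8.30% of 32851 promoters of that length. An ETS and IRF composite, GGAA and GAAA with any 2 bases between, was in 2.72%, and an interferon response pattern, GAAA and GAAA with any 2 bases between, was in 3.44%. A base may belong to matches of more than 1 pattern. Among the 9 windows of the 8 genes the search gave a single match, the ETS and IRF composite in Il6st, which lies on the opposite strand and begins 224 bases before the start. In the other windows these letters were not found. The windows differed more in base composition. That of Jak3 had 54.3% G and C with 9 CG dinucleotides, against a median of 52.7% and 7 over all promoters. The window of Jak1 had 64.7% and 29, that of Il6ra 66.0% and 25, and that of Il6st 68.3% and 33.

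By mean level the kinases were the more abundant of the 10 genes, and the receptor chains spanned a wide range below them. Mean levels over the 12 libraries ran from Jak1 (49.5 RPKM) through Jak2 (29.7), Jak3 (19.6) and Tyk2 (17.2) to Il10rb (9.47), Il10ra (8.73), Il6st (2.43), Il6ra (2.23), Lifr (1.04) and Osmr (0.00294). Jak1 was above Jak2 in 12 of 12 libraries, and their ranges did not overlap. Jak2 was above Jak3 in 11 libraries and Jak3 above Tyk2 in 9, so this order changed from library to library. Tyk2 was above Il10rb in all 12, although the ranges overlapped. In single libraries an IL-10 receptor chain could exceed a kinase: in PBS replicate 4, Il10ra was above Tyk2 and Jak3, and Il10rb above Jak3. In CpG-STAT3dODN replicate 4, Il10rb was above Jak3. The 2 IL-10 receptor chains were not ordered beyond their spread, with Il10rb higher in 7 of 12 libraries, and neither were Il6st and Il6ra, with Il6st higher in 8. Il10ra exceeded Il6st in all 12 libraries, as Il6ra did Lifr and Lifr did Osmr. Against the 10886 genes tested, the mean level of Jak1 was at the 88.4th percentile, Il10rb at the 45.6th, Il6st at the 13.3rd and Lifr at the 2.21st.

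Il6ra, the chain that binds IL-6, was highest in the PBS-labelled libraries. Its levels there were 2.55, 3.05, 3.00 and 3.90 RPKM (replicates 1 to 4), against 1.67, 1.79, 1.34 and 1.73 in the CpG-scrODN-labelled and 2.08, 1.60, 2.62 and 1.40 in the CpG-STAT3dODN-labelled libraries. All 4 CpG-scrODN-labelled values lay below all 4 PBS-labelled ones, whereas 1 of the CpG-STAT3dODN-labelled values reached into the PBS-labelled range. Group means were 3.12 ± 0.563, 1.63 ± 0.201 and 1.93 ± 0.545 RPKM (SD, n = 4 each). The CpG-scrODN-labelled mean was 0.523 times the PBS-labelled mean. On the log2(RPKM + 1) scale, on which changes of low genes are understated, this difference was -0.64 (SE 0.14, 95% interval -0.95 to -0.33, limma adjusted p = 0.0238). The same call was not made when some single libraries were left out: without PBS replicate 2 or 4, or without any 1 of the 4 CpG-scrODN libraries, the adjusted p was between 0.0542 and 0.0942. Quantile normalization also ended it, at -0.49 and a limma adjusted p of 0.0566. For the CpG-STAT3dODN-labelled libraries against the PBS-labelled, the difference was -0.50 (-0.81 to -0.19, limma adjusted p = 0.132). The 2 oligonucleotide-labelled groups differed by 0.14 (-0.17 to 0.45, limma adjusted p = 0.960).

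Il6st, which encodes gp130, was level across most libraries. It was at 2.28, 2.65, 2.38 and 4.47 RPKM in the PBS-labelled libraries, at 2.13, 2.31, 1.97 and 2.20 in the CpG-scrODN-labelled and at 2.34, 2.05, 2.10 and 2.23 in the CpG-STAT3dODN-labelled. A single library, PBS replicate 4, lay far above the other 11, and the groups overlapped. The differences from the PBS-labelled group were -0.29 (-0.61 to 0.02, limma adjusted p = 0.361) and -0.28 (-0.59 to 0.03, limma adjusted p = 0.638). Without both low-Fos libraries they were -0.12 and -0.12. The ratio of Il6st to Il6ra was 0.792 to 1.15 in the PBS-labelled libraries, 1.27 to 1.47 in the CpG-scrODN-labelled and 0.801 to 1.60 in the CpG-STAT3dODN-labelled.

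Lifr, the LIF receptor chain, and Osmr, the oncostatin M receptor chain, were the least abundant. Lifr was at 0.754, 0.989, 0.988 and 1.07 RPKM in the PBS-labelled, 0.841, 1.03, 0.944 and 1.48 in the CpG-scrODN-labelled and 1.15, 1.08, 0.989 and 1.22 in the CpG-STAT3dODN-labelled libraries. These ranges overlapped, and only 6 of the 12 values reached 1 RPKM. The differences from the PBS-labelled group were 0.08 (-0.16 to 0.32) and 0.12 (-0.13 to 0.36). Osmr was listed at 0 in 7 libraries, at the value of 1 read in 4 and at that of 2 reads in 1, CpG-STAT3dODN replicate 4, which is 6 reads in all. A floor of 3 reads corresponds to 0.0171 to 0.0196 RPKM, and no library reached it. Osmr RNA was therefore not detectable beyond counting error at this depth, it did not pass the filter, and no fold is given.

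**Figure D1:**
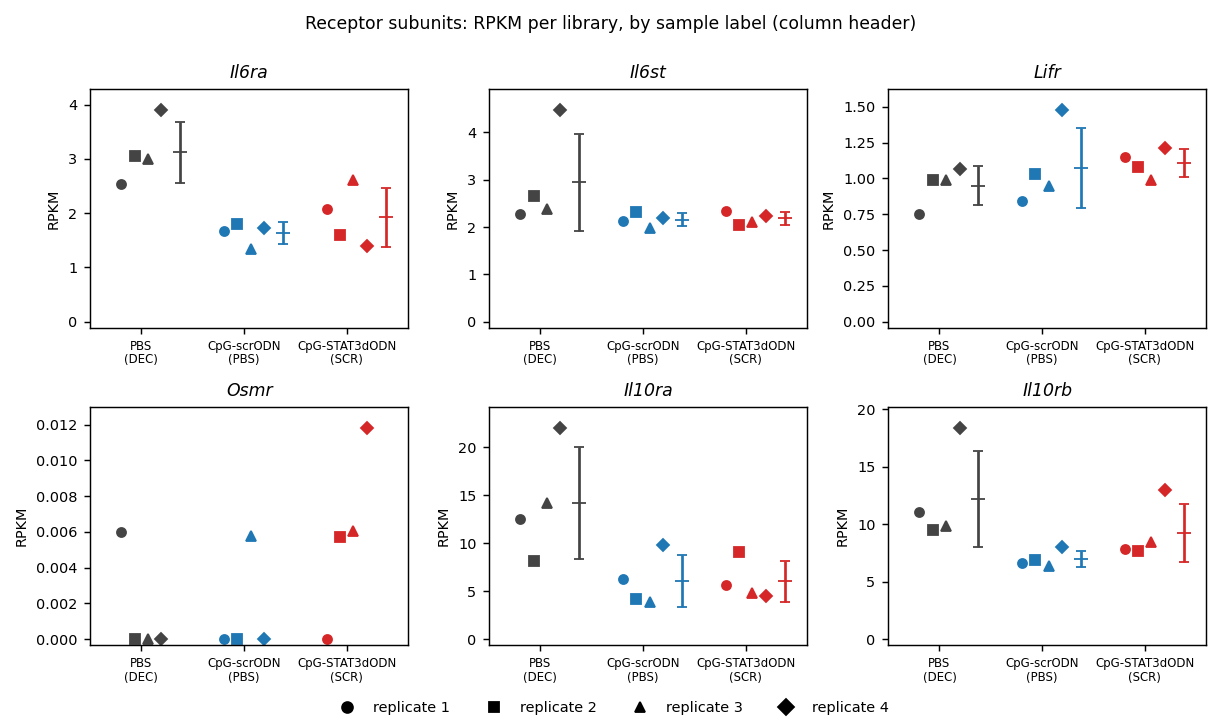
RPKM (vertical axes, linear) of the 6 receptor chains in each library, by labelled group with the header word in parentheses; symbols are replicates, and horizontal and vertical bars are the mean and SD of 4 libraries (none for Osmr). The PBS-labelled values of Il6ra and Il10rb all lie above the CpG-scrODN-labelled ones, and Osmr stays under 0.0171 RPKM.

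Il10ra, which binds IL-10, was the most variable of the 9 genes tested, with a highest value 5.75 times the lowest. It was at 12.5, 8.12, 14.1 and 22.0 RPKM in the PBS-labelled libraries, at 6.26, 4.20, 3.83 and 9.76 in the CpG-scrODN-labelled and at 5.67, 9.05, 4.79 and 4.49 in the CpG-STAT3dODN-labelled. Of the 4 PBS-labelled libraries, 3 exceeded all 8 others, and the lowest, replicate 2, lay within both other ranges. Group means were 14.2 ± 5.80, 6.01 ± 2.72 and 6.00 ± 2.09 RPKM (SD, n = 4 each). The differences from the PBS-labelled group were -1.11 (-1.80 to -0.43, limma adjusted p = 0.0811) and -1.08 (-1.77 to -0.40, limma adjusted p = 0.151), neither of which passed. The first would have passed without PBS replicate 2 (limma adjusted p = 0.0392), without CpG-scrODN replicate 4 (0.0386) or without all 3 libraries numbered 4 (0.0344).

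Il10rb, the shared second chain, was at 11.1, 9.51, 9.87 and 18.4 RPKM in the PBS-labelled libraries, at 6.64, 6.92, 6.32 and 7.98 in the CpG-scrODN-labelled and at 7.85, 7.67, 8.41 and 13.0 in the CpG-STAT3dODN-labelled. Every PBS-labelled value was above every CpG-scrODN-labelled value, and replicate 4 was the highest library of each group. Group means were 12.2 ± 4.18, 6.97 ± 0.718 and 9.24 ± 2.54 RPKM (SD, n = 4 each). The difference between the CpG-scrODN-labelled and PBS-labelled libraries was -0.69 (-1.13 to -0.25, limma adjusted p = 0.0957) and did not pass. Without both low-Fos libraries it was -0.49 (limma adjusted p = 0.00531), without CpG-STAT3dODN replicate 4 alone the limma adjusted p was 0.0416, and without all 3 libraries numbered 4 it was -0.55 (limma adjusted p = 0.00203), so the call depended on them. For the CpG-STAT3dODN-labelled libraries it was -0.35 against the PBS-labelled (-0.79 to 0.09, limma adjusted p = 0.737). Il10rb, Il10ra and Il6ra are also expressed by lymphocytes, monocytes or both.

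Marker lists of several other cell types also differed between the groups. Besides the B-cell genes above, 3 of the 4 T-cell genes tested were called lower in each oligonucleotide-labelled group than in the PBS-labelled one. The share over all genes tested was 4.15% for CpG-scrODN and 1.86% for CpG-STAT3dODN. The whole list of 12 T-cell genes summed to 157 to 177 RPKM in the PBS-labelled, 162 to 172 in the CpG-scrODN-labelled and 156 to 172 in the CpG-STAT3dODN-labelled libraries, and Trat1 was at 0 in 5 libraries. Most of this sum was Lat, at 136 ± 22.4, 164 ± 3.85 and 158 ± 7.59 RPKM in group order (SD, n = 4 each). The T-cell receptor chain Cd3g was far lower, at 2.55, 0.408 and 0.621 RPKM. Whether the Lat RNA came from T cells was not tested. The mean log2(RPKM + 1) of the list, in which each gene counts alike, was 1.55 to 2.21, 0.90 to 1.13 and 0.92 to 1.21. The 14 monocyte and macrophage genes summed to 385 to 625 RPKM in the PBS-labelled, 201 to 279 in the CpG-scrODN-labelled and 235 to 460 in the CpG-STAT3dODN-labelled libraries, with 2 and 1 of the 11 tested called lower. The 7 plasma-cell genes summed to 104 to 156, 41.8 to 65.6 and 71.4 to 88.8 RPKM, with 3 and 2 of the 5 tested called lower, and Tnfrsf17 was at 0 in 5 libraries. With the mean level of the B-cell list as a covariate, the difference of Il6ra between the CpG-scrODN-labelled and PBS-labelled libraries was -0.45 (limma adjusted p = 0.548) and that of Il10rb was 1.01 (limma adjusted p = 0.164). The labelled group accounted for 0.919 of the variance of that covariate, so the group and the B-cell level cannot be told apart. The part of the other cell types, and of the progenitor list, was not tested. PBS replicate 4, with the most B-cell RNA of the 12 libraries, also had the highest Il6ra, Il10ra and Il10rb of the 12. The CpG-STAT3dODN-labelled library with the most B-cell RNA, replicate 4, had the lowest Il6ra and the lowest Il10ra of its group and the highest Il10rb. The CpG-scrODN-labelled library with the least, also replicate 4, had the highest Il10ra and Il10rb of its group.

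**Figure D2:**
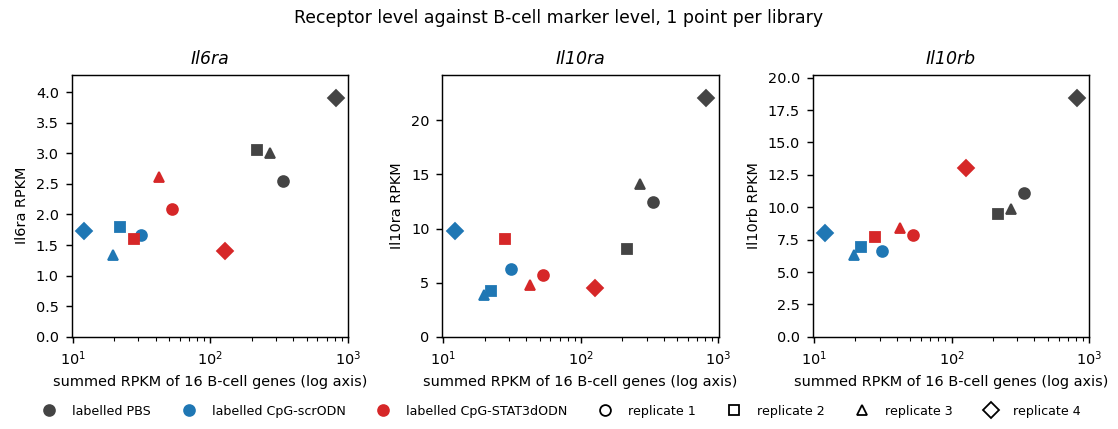
RPKM of Il6ra, Il10ra and Il10rb (vertical axes, linear) against the summed RPKM of 16 B-cell genes (horizontal axes, log scale), with 1 point per library, coloured by labelled group and shaped by replicate. The 4 PBS-labelled libraries lie to the right of all others, at 218 to 816, and within the other groups the receptor levels do not follow one order.

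Jak1, the kinase that the IL-6 and IL-10 receptors chiefly use, was at 44.6, 42.9, 48.7 and 63.1 RPKM in the PBS-labelled libraries. It was at 45.6, 47.9, 46.0 and 48.8 in the CpG-scrODN-labelled and at 47.9, 46.9, 45.5 and 65.4 in the CpG-STAT3dODN-labelled. The groups overlapped, and the 2 highest values were those of the low-Fos libraries. The differences from the PBS-labelled group were -0.06 (-0.36 to 0.23, limma adjusted p = 0.838) and 0.05 (-0.25 to 0.34). Neither interval reached beyond 0.36 on the log2 scale in either direction.

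Jak2, which serves gp130 and the GM-CSF receptor, was at 21.7, 19.7, 30.1 and 34.0 RPKM in the PBS-labelled libraries. It was at 31.2, 28.3, 27.6 and 33.3 in the CpG-scrODN-labelled and at 29.5, 38.1, 26.6 and 36.5 in the CpG-STAT3dODN-labelled. PBS replicates 1 and 2 were the lowest of the 12, and the groups overlapped. Kit was also lowest in these 2 libraries, at 10.5 and 12.8 RPKM, against 22.9 to 51.1 in the others. The part of sample make-up in the level of Jak2 was not tested. The Jak2 differences from the PBS-labelled group were 0.21 (-0.16 to 0.58, limma adjusted p = 0.578) and 0.32 (-0.05 to 0.69, limma adjusted p = 0.685).

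Jak3, the kinase of the common gamma chain, was at 20.4, 22.8, 23.2 and 13.9 RPKM in the PBS-labelled, 19.9, 20.7, 20.3 and 15.9 in the CpG-scrODN-labelled and 22.7, 23.9, 19.8 and 11.7 in the CpG-STAT3dODN-labelled libraries. Replicate 4 was the lowest library of every group, and the 9 others lay between 19.8 and 23.9. The differences from the PBS-labelled group were -0.04 (-0.51 to 0.42, limma adjusted p = 0.934) and -0.06 (-0.53 to 0.41). Tyk2, which serves interferon, IL-10 and IL-12 receptors, was the steadiest of the 9 genes tested. Its levels were 15.6, 15.8, 17.4 and 18.9 RPKM in the PBS-labelled, 18.3, 17.4, 17.4 and 16.8 in the CpG-scrODN-labelled and 17.8, 19.7, 16.4 and 14.5 in the CpG-STAT3dODN-labelled libraries, a highest value 1.36 times the lowest. Its differences from the PBS-labelled group were 0.05 (-0.16 to 0.26) and 0.01 (-0.20 to 0.22).

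**Figure D3:**
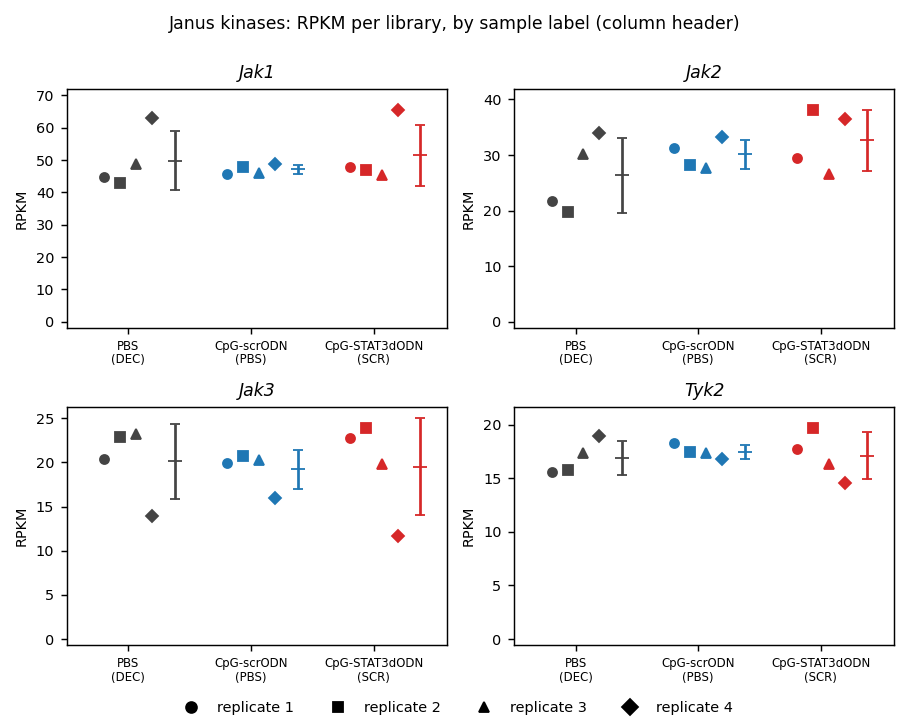
RPKM (vertical axes, linear) of the 4 Janus kinases in each library, by labelled group with the header word in parentheses; symbols are replicates, and horizontal and vertical bars are the mean and SD of 4 libraries. Groups overlap for every kinase, and replicate 4 is the lowest library of each group for Jak3 and the highest for Jak1.

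The balance of the kinases differed between libraries of the same group. The 4 kinases summed to 101 to 130 RPKM. Jak3 made up 17.3% to 22.6% of that sum in the 9 libraries numbered 1 to 3, 13.9% in CpG-scrODN replicate 4, 10.7% in PBS replicate 4 and 9.09% in CpG-STAT3dODN replicate 4. The ratio of Jak1 to Jak3 was 1.88 to 2.32 in those 9 libraries. It was 3.07 in CpG-scrODN replicate 4, 4.53 in PBS replicate 4 and 5.62 in CpG-STAT3dODN replicate 4. All 3 libraries numbered 4 thus had the highest ratio of their group, and the 2 with low Fos had the highest of all. CpG-scrODN replicate 4 did not share the low Fos, at 1038 RPKM. Replicate 4 was the highest of its group in all 3 groups for 3 of the 9 genes tested, Jak1, Il10rb and Lifr, as it was for 11.5% of the 10886 genes. It was the lowest in all 3 groups for Jak3, as it was for 13.2%.

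**Figure D4:**
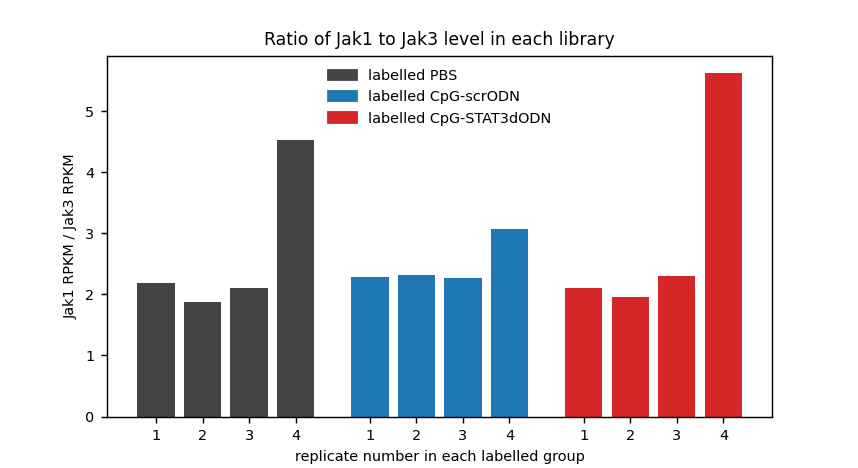
Ratio of Jak1 to Jak3 RPKM (vertical axis, linear, from 0) in each of the 12 libraries, with 1 bar per library, coloured by labelled group and ordered by replicate number. The 9 libraries numbered 1 to 3 lie between 1.88 and 2.32, and the 3 numbered 4 are at 4.53, 3.07 and 5.62.

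Each comparison was set against the whole table. Between the CpG-scrODN-labelled and PBS-labelled libraries, 452 of 10886 genes (4.15%) were called at an adjusted p under 0.05, and 1 of the 9 tested here, Il6ra, was among them. Of the 452, 440 were lower and 12 higher in the CpG-scrODN-labelled libraries. Groups did not overlap for 1511 genes (13.9%), and for 2 of the 9, Il6ra and Il10rb. At an unadjusted p under 0.05 there were 1702 of the 10886 and 3 of the 9, Il6ra, Il10ra and Il10rb. In an exact two-sided permutation test of 4 against 4 libraries these 2 had p = 0.0286, the smallest that 70 splits allow, and 0.214 after adjustment over the 30 comparisons made. Between the CpG-STAT3dODN-labelled and PBS-labelled libraries, 202 genes (1.86%) were called and 549 (5.04%) did not overlap, with none of the 9 in either count. Of the 202, 199 were lower and 3 higher in the CpG-STAT3dODN-labelled libraries. At an unadjusted p under 0.05 there were 1023 of the 10886 and 2 of the 9, Il6ra and Il10ra. These comparisons share the PBS-labelled libraries. Between the 2 oligonucleotide-labelled groups limma called 0 genes (0%), with 295 at an unadjusted p under 0.05. There 463 genes (4.25%) did not overlap, none of the 9 was in either count, and none had an unadjusted p under 0.05. The median difference of the 9 genes was -0.06, -0.06 and 0.03 in the 3 comparisons, beside -0.05, -0.01 and 0.03 for all genes tested.

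**Figure D5:**
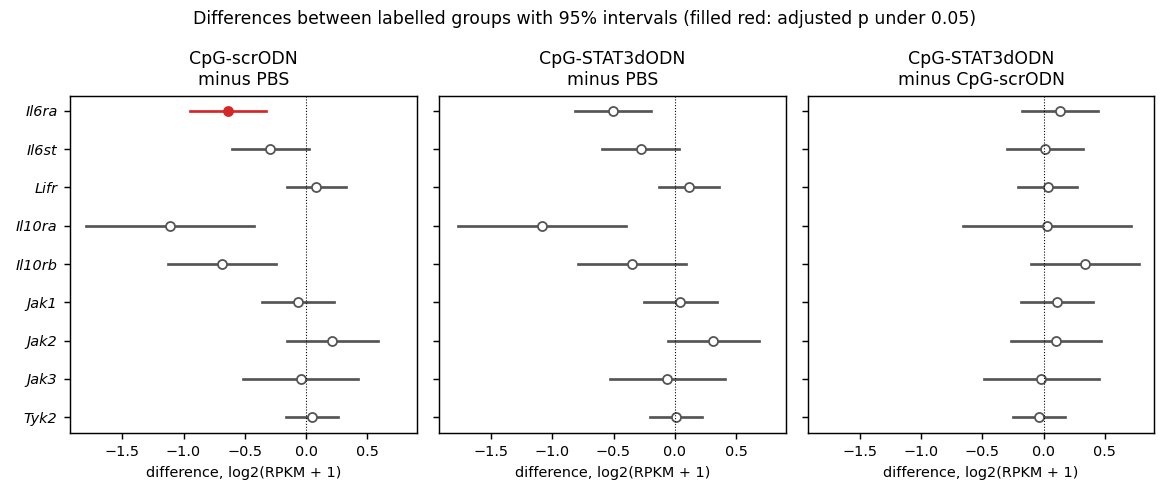
Differences between labelled groups on the log2(RPKM + 1) scale (horizontal axes) for the 9 genes that passed the filter (vertical axis), with 1 panel per comparison; points are limma estimates and lines are 95% intervals. Il6ra in the first panel, at -0.64, is the only filled red point, an adjusted p under 0.05.

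Among 18 ligands of the IL-6 and IL-10 families, 6 were abundant enough to test. Only 1 was called lower in the CpG-scrODN-labelled than in the PBS-labelled libraries, where 4.15% of all genes were called. This was Clcf1, a ligand of the CNTF receptor, at 0.516 ± 0.0499 RPKM against 3.96 ± 3.00 (SD, n = 4 each; difference -1.55, limma adjusted p = 0.0231). The most abundant were Osm and Il6, the ligands of Osmr and Il6ra. Osm was at 12.6 ± 4.81, 18.3 ± 4.34 and 12.2 ± 3.87 RPKM in the PBS-, CpG-scrODN- and CpG-STAT3dODN-labelled groups, and Il6 at 8.28 ± 4.13, 12.6 ± 0.957 and 15.2 ± 5.32 (SD, n = 4 each). Neither passed in any comparison. The CpG-STAT3dODN-labelled libraries had 0 ligands called by limma against the PBS-labelled, with 2 of the 6 at an unadjusted p under 0.05, beside 1023 of all 10886 genes.

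Of 9 tested chains that pair with gp130 or belong to interferon, IL-12 or G-CSF receptors, 1 was called, beside 4.15% of all genes. This was Ifnar2 of the type I interferon receptor. It was at 7.94 ± 0.607 RPKM in the CpG-scrODN-labelled group against 11.1 ± 1.47 in the PBS-labelled group (SD, n = 4 each). The difference was -0.43 (limma adjusted p = 0.0216). Il27ra, the gp130 partner for IL-27, was the most abundant of this list, at 17.0, 15.6 and 16.3 RPKM in group order. Ifngr2 of the interferon gamma receptor came next, at 14.5, 7.18 and 11.4, and neither passed. The median difference of the list was -0.43 and -0.25 against the PBS-labelled group.

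Of 13 tested chains of the common gamma, common beta and related receptors, 3 were called lower in the CpG-scrODN-labelled than in the PBS-labelled libraries. The share over all genes was 4.15%, nearly all of them lower. Il21r, the IL-21 receptor chain of lymphocytes, fell the most, from 9.88 ± 5.90 to 0.783 ± 0.268 RPKM (SD, n = 4 each; difference -2.49, limma adjusted p = 0.00263). It was also lower in the CpG-STAT3dODN-labelled libraries (2.22 ± 1.88, difference -1.79, limma adjusted p = 0.0365). Il2rb, a chain of the IL-2 and IL-15 receptors, had a difference of -1.24 (limma adjusted p = 0.0142) and Csf2ra, of the GM-CSF receptor, -0.51 (limma adjusted p = 0.0384) in the first of these comparisons. Csf2rb, the common beta chain, was at 230 ± 290, 107 ± 29.9 and 278 ± 359 RPKM in group order (SD, n = 4 each) and did not pass. It reached 665 and 817 RPKM in replicate 4 of the PBS-labelled and of the CpG-STAT3dODN-labelled group, the 2 low-Fos libraries. The 17 listed chains summed to 1669 and 2012 RPKM in them, so these group means rest largely on 1 library each. Csf2rb shares reads with its near copy Csf2rb2 to an uncertain extent, which was not tested.

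The 6 STAT factors tested did not pass in any comparison. Stat3 was at 43.2 ± 6.82, 45.0 ± 1.56 and 43.5 ± 6.78 RPKM, and Stat5a at 34.7 ± 5.66, 38.8 ± 2.81 and 42.7 ± 8.93 (SD, n = 4 each). The median STAT difference was -0.10 and 0.02 against the PBS-labelled group. At an unadjusted p under 0.05 there were 2, 2 and 0 of the 6, beside 1702, 1023 and 295 of all 10886 genes in the 3 comparisons.

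Of 22 tested genes that restrain Janus kinases or shed their receptors, 3 were called lower in the CpG-scrODN-labelled than in the PBS-labelled libraries. Of these, 2 were also called lower in the CpG-STAT3dODN-labelled. Over all genes, 4.15% and 1.86% were called in these comparisons, nearly all lower. Ptprc, the phosphatase CD45 of all white blood cells, was at 37.6 ± 10.1 RPKM in the PBS-labelled, 6.29 ± 1.57 in the CpG-scrODN-labelled and 9.63 ± 2.15 in the CpG-STAT3dODN-labelled group (SD, n = 4 each). The differences were -2.40 (limma adjusted p = 8.58e-05) and -1.85 (limma adjusted p = 0.000818). Ptpn1, a phosphatase that acts on Jak2 and Tyk2, had differences of -0.64 (limma adjusted p = 0.00243) and -0.47 (limma adjusted p = 0.0301). Cblb, a ubiquitin ligase, had -1.49 in the first comparison (limma adjusted p = 0.0245). The most abundant of the list, the phosphatase Ptpn6 (76.0, 69.0 and 66.0 RPKM in group order) and the sheddase Adam10 (36.1, 32.1 and 35.2), did not pass.

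Of 16 tested genes known as STAT3 targets, 1 was called lower in both comparisons with the PBS-labelled group. Over all genes, 4.15% and 1.86% were called in these comparisons. The called target was Cebpd, a C/EBP transcription factor. It was at 3.34 ± 0.686 RPKM in the PBS-labelled, 1.07 ± 0.269 in the CpG-scrODN-labelled and 1.72 ± 0.344 in the CpG-STAT3dODN-labelled libraries (SD, n = 4 each). Its differences were -1.07 (limma adjusted p = 0.00113) and -0.67 (limma adjusted p = 0.0354). Junb and the kinase Pim1 were the most abundant, at 162, 271 and 129 RPKM and at 89.9, 139 and 138 RPKM in group order, and neither passed. The median difference of the list was -0.24 and -0.11. Between the CpG-scrODN-labelled and PBS-labelled libraries, 1702 of 10886 genes were at an unadjusted p under 0.05. Among them were 3 of 6 ligands and 6 of 9 chains of the gp130-partner, interferon, IL-12 and G-CSF receptors. They also held 3 of 13 gamma and beta chain receptors, 8 of 22 inhibitors and 9 of 16 targets. Between the CpG-STAT3dODN-labelled and PBS-labelled libraries the counts were 2, 2, 2, 7 and 4, beside 1023. For CpG-STAT3dODN-labelled against CpG-scrODN-labelled libraries they were 0, 0, 1, 1 and 4, beside 295, and limma called none. Those 4 targets were Junb (-1.09) and Tnfaip3 (-1.62), which were lower, and Myc (0.40) and Cebpd (0.40), which were higher. Genes of the B-cell, T-cell, plasma-cell and monocyte and macrophage lists were called lower in both comparisons with the PBS-labelled group. Lat, placed on the T-cell list, was higher on average and was not called. Mpo, Elane, Prtn3 and Ctsg of the progenitor list were called lower between the CpG-scrODN-labelled and PBS-labelled libraries. The part of these markers in the called genes was not tested.

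The genes whose levels ran most like those of each of the 9 are given as a description over the 12 libraries, which share the differences in Fos and B-cell markers. For Il6ra the Pearson r of log2(RPKM + 1) was 0.954 with Cybb, of the phagocyte oxidase, 0.954 with the TNF receptor Tnfrsf1a and 0.953 with the T-cell receptor chain Cd3g. Without both low-Fos libraries these were 0.950, 0.974 and 0.925. The genes closest to Il6st were Pou6f1, Ric1 and Cd93, at 0.944, 0.943 and 0.939, and without those libraries at 0.635, 0.483 and 0.684. Lifr ran with Fam198b (0.937), Myadm (0.898) and Gas7 (0.879). Closest to Il10ra were Rnf13 (0.966), Rabgap1l (0.965) and Sp100 (0.946), and to Il10rb were Notch2 (0.982), Snx9 (0.976) and B2m (0.976), the light chain of class I molecules.

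Among the kinases, Jak1 ran most closely with Osbpl11 (0.991), Msi2 (0.985) and Usp38 (0.984), which without the low-Fos libraries were at 0.941, 0.806 and 0.779. Jak2 ran with Nipal3 (0.981), Lyrm2 (0.965) and Kdm6a (0.960), and without those libraries at 0.979, 0.974 and 0.989. Jak3 was closest to Clasrp (0.970), Tmem8 (0.965) and Eri3 (0.954), and without those libraries these were at 0.881, 0.865 and 0.791. For Tyk2 the closest genes were Gbp7 (0.936), Stat3 (0.922) and Zscan26 (0.905), and without the low-Fos libraries these were at 0.892, 0.853 and 0.859. Stat3 is a substrate of these kinases.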

How the data were processed

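RPKM values for 24310 features per library were used as the authors deposited them, with the unit taken per the file headers. The submitters' processing notes name mm10, TopHat 1.3.1 and Partek 6.12.0713, but the sources used here do not give the annotation, filters or strand setting. Libraries were grouped by their labels, 4 per group. RPKM holds no counts and only 55.8% to 58.8% of low values came out as whole reads (tolerance 0.05), so no count test was run.

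Differences were computed with limma 3.58.1 in R 4.3.3 on log2(RPKM + 1), with 3 groups in 1 model and an intensity trend, over the 10886 genes that reached 1 RPKM in 4 or more of the 12 libraries. P-values are two-sided and were adjusted over these genes by the Benjamini-Hochberg method within each comparison, and a gene was called at an adjusted p under 0.05. Single genes were also compared by exact permutation tests.

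The 10 genes, the pathway and marker lists and the tests were chosen with earlier results of these data known. Named were all 10 genes, the called genes (at most 4) and the 2 most abundant of each pathway list, and for each tested gene the 3 with the highest Pearson r over 12 libraries. Some genes that this rule names are not reported here. Sequences and coordinates are from RefSeq, GRCm38.p6, which is the assembly behind mm10. Alternatives were other pseudocounts, filters, scalings, covariates, weights and sets of libraries.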

Additional observations from a re-analysis of the deposited data

Results flagged for a closer look

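In 6 of the 30 groups of 4 libraries examined for the 10 genes, 1 library lay apart by Dixon's criterion. Chance sets apart about 1 in 20 groups, a rate that does not apply to the 2 Osmr groups, where a single read beside zeros meets the criterion by construction. Il6st was at 4.47 RPKM in PBS replicate 4, against 2.28 to 2.65 in the other 3 PBS-labelled libraries. Jak1 was at 65.4 and Il10rb at 13.0 RPKM in CpG-STAT3dODN replicate 4, both the highest of that group. Jak3 was at 15.9 RPKM in CpG-scrODN replicate 4, the lowest of its group. Osmr was at 0.00597 RPKM in PBS replicate 1 and at 0.00575 in CpG-scrODN replicate 3, each the value of 1 read beside 3 libraries listed at 0. The 3 libraries that set Il6st, Jak1, Il10rb and Jak3 apart all carry the number 4, and 2 of them, PBS replicate 4 and CpG-STAT3dODN replicate 4, are those with low Fos.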

How the results depend on the processing

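Of the single-gene results, 613 kept their side of the threshold under an alternative, 14 passed only under it, 9 no longer passed and 3 were counted as changed in sign. A change of sign was counted only where the 95% interval of the main value, of the alternative or of both left out 0. The 613 therefore include differences that changed direction while both intervals held 0. The number of genes called between the CpG-scrODN-labelled and PBS-labelled libraries, 452, was 163 with an RPKM of at least 5 required, 686 without both low-Fos libraries, 0 with the B-cell level as covariate and 1812 with library quality weights. Leaving out 1 library at a time gave 279 (without CpG-scrODN replicate 3) to 560. Of these, 1 (without CpG-scrODN replicate 3) to 104 (without PBS replicate 3) were called higher, beside 12 of the 452, with 56 without CpG-STAT3dODN replicate 4 and 3 to 6 without PBS replicate 1, CpG-scrODN replicate 1 or 2 or CpG-STAT3dODN replicate 1. The 202 between the CpG-STAT3dODN-labelled and PBS-labelled libraries became 76, 337, 1053 and 1248 under the same settings, 78 with only the 2 groups compared and 392 without all 3 libraries numbered 4. Leaving out 1 library gave 121 (without CpG-STAT3dODN replicate 2) to 218, with 131 without PBS replicate 1. Between the oligonucleotide-labelled groups, 0 became 1 with only the 2 groups compared and 607 with weights, and stayed 0 whichever 1 library was left out. The cause was not tested, except that the stricter filter tested fewer genes. Quantile normalization gave 75 higher and 318 lower in the first comparison, beside 12 and 440.

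With the B-cell level as covariate, the differences from the PBS-labelled group were 1.01 in place of -0.69 for Il10rb and 1.02 in place of -0.06 for Jak1 (CpG-scrODN-labelled, limma adjusted p = 0.164 and 0.0851) and 0.93 in place of -0.35 for Il10rb (CpG-STAT3dODN-labelled, 0.0933). The main intervals of the last 2 held 0. In that last comparison Jak1 passed at 0.87 (limma adjusted p = 0.0495). With weights, whose estimation stopped before it converged, Jak2, Il10ra and Il10rb passed in both comparisons with the PBS-labelled group, Jak2 at 0.36 and 0.40.

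The replicate numbers were not taken to pair the libraries, since not every same-numbered pair correlated over 0.1. The 12 same-numbered pairs had correlations of -0.34 to 0.817, with 5 over 0.1, among them the 3 pairs numbered 4 (0.193, 0.817 and 0.151), and 3 of 12 libraries correlated best with their own number. With a replicate block, 523, 213 and 0 genes were called. Il6ra then had a limma adjusted p of 0.0581 and Il10rb of 0.00894 between the CpG-scrODN-labelled and PBS-labelled libraries. Il6ra has no value under the stricter filter. Depth limits Osmr, at 6 reads over the 12 libraries.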
